A study of Mus musculus with 12 samples.

Results

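Osteoblasts are the cells that build bone, and 1321 of the 20213 cells kept from arthritic and resting mouse joints carried an osteoblast transcript pattern. A cell was counted as an osteoblast when it had more than 500 and fewer than 5000 detected genes, at least 3 of the 7 genes Ibsp, Sp7, Alpl, Runx2, Ostn, Slc36a2 and Dapk2, and at most 2 of the 5 cartilage genes Acan, Col2a1, Hapln1, Matn3 and Col9a1. These cells came from 12 droplet libraries that together held 21042 deposited cells. Because the rule read the cells' own transcripts, every level of osteoblasts against other cells below is a description and carries no test.

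The cells were live CD45-negative stromal cells, sorted from digested hind-limb joints of male wild-type C57BL/6 mice aged 8 to 10 weeks. Arthritis was passive: K/BxN serum, which carries antibodies that start joint inflammation, was injected intravenously in a volume of 100 µl. Libraries were labelled rest (no serum, day 0) or, by the time since serum, peak (7 to 9 days), resolving (15 days) and resolved (22 days), with 3 libraries per label. Each library pooled cells from the joints of 3 animals, so single animals could not be told apart, and the digested joints yielded bone, cartilage and vessel cells along with synovial fibroblasts.

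Osteoblasts arise from mesenchymal progenitors under the transcription factors Runx2 and Sp7, lay down type I collagen with small matrix proteins such as osteocalcin (Bglap) and bone sialoprotein (Ibsp), and drive mineral growth with the phosphatase Alpl. They also set the number of bone-resorbing osteoclasts through the ligand Tnfsf11 (RANKL) and its decoy receptor Tnfrsf11b (osteoprotegerin). In inflamed joints, bone is lost at the edges of the synovium and rebuilding by osteoblasts is known to lag behind resorption.

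Promoters of 4 genes on which the description below turns are shown first, as the 250 bases before the RefSeq start (GRCm38.p6): Bglap, the marker that the rule did not use, Spp1 and Mmp13, which were high in one set of osteoblasts, and Wnt16, which was high in the other. Capitals mark ACCACA, a core that Runx proteins are known to bind; the letters ACCACA and their reverse complement TGTGGT were searched, and these windows hold no base of an annotated transcript.
Bglap, chr3:88384467-88384716, minus strand: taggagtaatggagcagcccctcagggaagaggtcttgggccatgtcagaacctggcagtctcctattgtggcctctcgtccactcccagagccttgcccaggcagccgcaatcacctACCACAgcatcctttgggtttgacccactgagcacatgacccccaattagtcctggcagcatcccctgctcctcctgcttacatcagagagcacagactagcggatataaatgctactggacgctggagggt
Spp1, chr5:104434861-104435110, plus strand: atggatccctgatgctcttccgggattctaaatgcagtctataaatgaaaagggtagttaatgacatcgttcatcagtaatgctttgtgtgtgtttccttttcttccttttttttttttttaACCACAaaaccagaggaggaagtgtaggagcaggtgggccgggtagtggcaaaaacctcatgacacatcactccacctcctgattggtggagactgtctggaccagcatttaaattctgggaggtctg
Mmp13, chr9:7272264-7272513, plus strand: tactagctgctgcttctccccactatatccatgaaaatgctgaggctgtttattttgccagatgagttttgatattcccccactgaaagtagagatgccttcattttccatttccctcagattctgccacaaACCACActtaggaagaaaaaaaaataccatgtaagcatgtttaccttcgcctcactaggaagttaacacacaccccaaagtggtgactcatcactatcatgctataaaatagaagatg
Wnt16, chr6:22287977-22288226, plus strand: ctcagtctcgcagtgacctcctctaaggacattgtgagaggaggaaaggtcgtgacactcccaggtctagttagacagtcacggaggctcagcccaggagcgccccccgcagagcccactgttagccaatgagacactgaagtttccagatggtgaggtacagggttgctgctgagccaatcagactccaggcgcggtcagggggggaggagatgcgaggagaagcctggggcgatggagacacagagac
The motif began 132 bases before the start of Bglap, 128 before Spp1 and 118 before Mmp13, and the Wnt16 window did not hold these letters. Of the 4 rule genes with a window, 1 held the motif (Runx2). The windows of Ibsp, which is used below to split the osteoblasts, and of Alpl, Dapk2, Omd and Bglap3 did not. Of all 32851 promoter windows of this length, 14% held the motif. Counted per gene, 15.9% of the 27025 genes with a window had it, and of the 30 bone-list genes with a window 8 did. A match of 6 letters describes the sequence and says nothing of binding.

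The 12 libraries were separable by the numeric suffix of their cell barcodes, and they grouped by sets of 3 consecutive suffixes rather than by label. Suffixes 1, 5 and 9 were the rest libraries, 2, 6 and 10 the peak, 3, 7 and 11 the resolving and 4, 8 and 12 the resolved libraries, so the sets 1 to 3, 4 to 6, 7 to 9 and 10 to 12 each mixed 3 of the 4 labels. For the osteoblast sums, the library with the most similar profile, after each gene was centred on its mean over the libraries, came from the same suffix set for 10 of 12 libraries and had the same label for 1 of 12. For fibroblasts these counts were 11 and 0 of 12. Without the centring, the osteoblast counts were 4 for the suffix set and 1 for the label. The centred osteoblast correlations with the nearest library were low, from 0.0014 (suffixes 7 and 9) to 0.297 (suffixes 1 and 3). They were 0.063 to 0.067 in suffixes 4 to 6 and 0.016 in suffix 8, so these 2 sets were only weakly grouped. What a suffix set stands for is not given in the sources used here, and no barcode was shared among the 21042 cells. Every comparison between labels below is therefore set beside the comparison between suffix sets. Whether each suffix carries the right label was not tested, so the label comparisons hold for the libraries as labelled.

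Genes that the rule did not use marked these cells as osteoblasts. Levels are given as CPM, the UMIs of a gene for every 1000000 UMIs of all osteoblasts of a library, where a UMI counts 1 captured transcript. Bglap, the gene of the bone matrix protein osteocalcin (chr3:88383501-88384464, minus strand), was at 8633, 7464 and 8483 CPM in suffixes 1 to 3, 12783, 2641 and 3766 in 4 to 6, 5558, 9145 and 13319 in 7 to 9 and 7957, 7161 and 6306 in 10 to 12. It was thus at 2641 CPM or more in every library and lowest in suffixes 5 and 6, against means of 74.1 CPM in fibroblasts and 8.66 in endothelial cells. A Bglap UMI was seen in 88.7% of osteoblasts (median depth 5666 UMIs) and in 3.48% of endothelial cells (median depth 3193.5), a type that should lack it. Bglap2 was detected in 90.3% against 2.32%. Bglap, Bglap2 and Bglap3 are near-identical neighbours, and their reads may be split among them, so the level of any single copy is uncertain.

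Ptprc and Pecam1, defining genes of leukocytes and of endothelium, were rare, whereas red cell transcripts were not. A UMI of Ptprc, the gene of CD45, was found in 0 of 1321 osteoblasts, which allows a share of up to 0.227% of cells with such a UMI, and a Pecam1 UMI in 3.94%. The sum of 7 red cell genes averaged 1519 CPM over the libraries, from 202 to 9233, against 912 in fibroblasts and 4928 in endothelial cells. Col10a1, a gene of hypertrophic cartilage, was found in 9 osteoblasts (0.681%). The osteocyte genes Dmp1, Mepe and Phex were found in 4.01%, 1.29% and 1.14% of cells and Sost in 1 cell, so defining genes of osteocytes, the cells that sit inside the mineral, were scarce. The tendon gene Tnmd was found in 13.5% of osteoblasts and 2.53% of endothelial cells, and Prg4 of the joint lining in 60.6% against 45.8%, a share that endothelial cells should lack. At least 2 markers of another class were found in 71 of the 1321 cells, and 204 cells that met both the osteoblast and the cartilage gene sets were left out of the osteoblasts and counted among the 714 chondrocytes.

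The strength of the pattern varied among the members. Of the 1321 cells, 345 had 3 of the 7 rule genes, 368 had 4, 304 had 5, 225 had 6 and 79 had all 7. Bglap UMIs were found in 76.8% of the cells just inside the rule, with 3 genes, at 3889.9 CPM, and in 35.2% of the 679 cells just outside it, with 2 genes, at 942 CPM. Among the rule genes, Alpl was detected in 92.6% of members, Ostn in 70.6%, Ibsp in 69.0%, Dapk2 in 68.2%, Runx2 in 58.7%, Sp7 in 51.9% and Slc36a2 in 37.9%.

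Matrix genes led the description. Of 5711 genes compared with all other kept cells, 113 (1.98%) were over 2-fold higher in osteoblasts in 12 of 12 libraries and 106 (1.86%) over 2-fold lower, and 6 of the 22 bone matrix genes were among the higher ones. All 7 rule genes, which decided membership, were over 2-fold higher in this way. The counts of this list and of those below can include rule genes. The median log2 ratio was 5.76 for Bglap3, 5.72 (from 3.71 to 8.12 over the 12 libraries) for Bglap and 5.67 for Bglap2. Omd, a keratan sulfate proteoglycan of bone whose gene overlaps Cenpp, stood at 4.34 (from 3.19 to 5.51 over the 12 libraries), and Tnn (tenascin W) at 2.91. Postn, a matrix protein of periosteum and ligament, stood at 2.72 with a level of 2545 to 4955 CPM. Col1a1 ranged from 13359 to 29654 CPM over the libraries, against a fibroblast mean of 8553.

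Of the 16 mineralization genes, 3 were over 2-fold higher than in all other cells in every library. The chondrocyte levels given here and below include the cells that met both gene sets, and their part in those levels was not tested. Ifitm5, a membrane protein of mineralizing osteoblasts, stood at a median log2 ratio of 4.55 and ranged from 17.8 to 385 CPM. Alpl, which splits pyrophosphate, was at 1375, 1451 and 1537 CPM in suffixes 1 to 3, 836, 881 and 884 in 4 to 6, 1266, 1380.5 and 1167 in 7 to 9 and 1099, 1006 and 1509 in 10 to 12. Every library lay above the chondrocyte mean of 479.9 and the fibroblast mean of 18.7.

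Ibsp, which nucleates mineral, was at 6858, 5837 and 2636 CPM in suffixes 1 to 3, 4091, 6037 and 8063 in 4 to 6, 4349.9, 5606 and 8261 in 7 to 9 and 5760.0, 6205 and 7207 in 10 to 12. Chondrocytes of the same libraries averaged 4200.1 CPM, and the median of the log2 ratios over them, taken library by library, was 1.33. Smpd3, a sphingomyelinase needed for mineralization, was lower in osteoblasts than in chondrocytes, at a median log2 ratio of -1.69. Against chondrocytes, 82 of 5638 genes (1.45%) were over 2-fold higher in every library and 1.03% over 2-fold lower, and against fibroblasts 135 of 5606 (2.41%) were higher and 1.55% lower.

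Among the 18 osteoblast transcription factors, 4 were over 2-fold higher than in all other cells in every library. Sp7 and Runx2 are rule genes, so their rise follows from the selection. Sp7 was at 109 to 164 CPM and Runx2 at 111 to 169, a narrow span for both, and Runx2 overlaps another annotated gene. Dlx5, a homeobox activator of bone genes, stood at a median log2 ratio of 3.60 and was at 306, 231 and 455 CPM in suffixes 1 to 3, 201, 176 and 143 in 4 to 6, 173, 247 and 153 in 7 to 9 and 316, 283 and 322 in 10 to 12.

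Hormone and growth factor receptors included 4 of 24 genes that passed the 2-fold rule. Pth1r, the receptor of parathyroid hormone, was at 282, 379 and 282 CPM in suffixes 1 to 3, 297, 293 and 289 in 4 to 6, 304, 265 and 367 in 7 to 9 and 251, 215 and 236 in 10 to 12, a span of less than 2-fold. Its median log2 ratio was 3.14 over all other cells and -0.23 over chondrocytes, which carried it at 412 CPM. Fgfr2 ranged from 94.4 to 165 CPM at a median log2 ratio of 3.64. Vdr, the vitamin D receptor, stood at 3.46 and Lifr at 2.26.

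Of 25 Wnt pathway genes, 3 passed the 2-fold rule. Wnt16, a ligand known to restrain osteoclasts in cortical bone, was at 246, 141 and 249.7 CPM in suffixes 1 to 3, 182, 63.7 and 168 in 4 to 6, 124, 145 and 112 in 7 to 9 and 157, 212 and 175 in 10 to 12, a median log2 ratio of 3.94 over all other cells. Lrp4, the anchor of the Wnt inhibitor sclerostin, stood at 4.01 with 43.3 to 118 CPM. Wnt16 and Lrp4 levels were lowest in suffix 5, and Wnt16 was highest in suffixes 1 and 3.

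Of 17 osteoclast-regulating genes, 3 passed the 2-fold rule. Tnfsf11 (RANKL) was at 62.6, 81.6 and 40.7 CPM in suffixes 1 to 3, 21.8, 63.7 and 70.1 in 4 to 6, 50.6, 28.1 and 56.1 in 7 to 9 and 58.1, 56.9 and 43.2 in 10 to 12. Its decoy receptor Tnfrsf11b was at 69.8, 64.8 and 29.3 CPM in suffixes 1 to 3, 46.3, 35.7 and 30.5 in 4 to 6, 85.2, 59.3 and 44.9 in 7 to 9 and 119, 80.6 and 239 in 10 to 12, highest in suffix 12. Csf1, the growth factor of osteoclast precursors, was lower than in fibroblasts, at 39.6 to 89.6 CPM against a fibroblast mean of 122. Of the 38 inflammatory genes, 0 were over 2-fold higher than in all other cells in every library and 4 were over 2-fold lower.

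**Figure D1:**
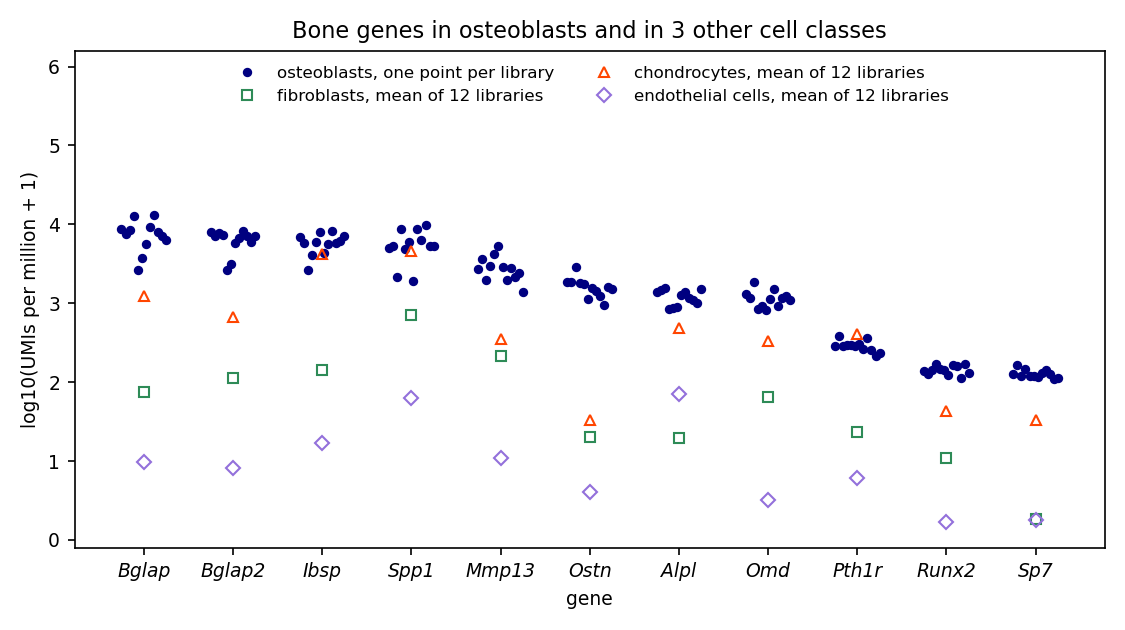
Levels of 11 bone genes as log10(CPM + 1), with 1 point per library for the osteoblast sums and the mean of the 12 libraries for fibroblasts, chondrocytes and endothelial cells. Bglap and Bglap2 stood above the means of the other classes in every library, whereas the gap to chondrocytes was smaller for Ibsp, at a chondrocyte mean of 4200.1 CPM.

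Ibsp and Ostn, which encodes the secreted peptide osteocrin, were detected together in some osteoblasts and singly in others. Both genes were detected in 559 cells (42.3%), Ibsp alone in 353 (26.7%), Ostn alone in 374 (28.3%) and neither in 35 (2.65%). Median depths were 5944 UMIs in Ibsp-only and 5196 in Ostn-only cells. Since both genes belong to the rule and the split was made by transcripts of the same cells, the values that follow are a description with no test. The rule leaves few cells that lack both genes, and a transcript can be missed in a cell that holds it, so the counts of the split are no finding. They cover the 11 libraries with at least 10 cells of each kind, and suffix 9 had too few.

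Spp1, Mmp13 and Ifitm5, genes of mineralization and matrix turnover, were higher on the Ibsp-only side. Of 1563 genes, 21 (1.34%) were over 2-fold higher by the median ratio, with 1 UMI added to each sum, and higher in every library. Spp1 (osteopontin), a phosphoprotein of the mineral surface whose gene overlaps another annotated gene, was at 12754 ± 7093 CPM in Ibsp-only and 1474 ± 1405 in Ostn-only sums (SD, n = 11), a median log2 ratio of 3.06. Its libraries ran from 3819 to 26397 against 314 to 5195 CPM. Mmp13, the collagenase of bone and cartilage turnover, was at 4299 ± 2439.6 CPM in Ibsp-only and 1059.7 ± 918 in Ostn-only sums, a log2 ratio of 2.23. Ifitm5 was at 182 ± 139 CPM in Ibsp-only and 7.98 ± 10.7 in Ostn-only sums (3.29), and its libraries did not overlap, from 43.4 to 498 against 0 to 36.7 CPM. Other genes on this side were Sgms2, a sphingomyelin synthase (log2 ratio 2.90), Clu (2.58), Anxa8 (3.00), Wisp2 (2.46) and Ecm1 (1.82). Dmp1, an early osteocyte gene, averaged 202 CPM in Ibsp-only and 1.63 in Ostn-only sums and was higher in 9 of 11 libraries.

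The secreted factors Ptn, Igf1 and Wnt16 were higher on the Ostn-only side. Over 2-fold lower in Ibsp-only cells, in every library, were 23 genes (1.47%). Ptn, a heparin-binding growth factor of bone matrix, was at 407 ± 221 CPM in Ibsp-only and 2294 ± 336 in Ostn-only sums (log2 ratio -2.72), and its libraries did not overlap, from 118 to 806 against 1685 to 2687 CPM. Wnt16 was at 65.6 ± 32.5 CPM in Ibsp-only and 256 ± 93.2 in Ostn-only sums (-1.48), Igf1 at 205 ± 154 CPM in Ibsp-only and 722 ± 214 in Ostn-only sums (-1.99) and Crabp1, which binds retinoic acid, at 6.09 ± 13.1 CPM in Ibsp-only and 232 ± 143 in Ostn-only sums (-4.10). Col8a1, Tspan7, Id2, Aspn and Il11ra1 had log2 ratios of -2.35, -1.90, -1.62, -1.51 and -1.48. Bglap2 did not follow the split, at 6907 ± 2990.0 CPM in Ibsp-only and 6099.9 ± 2107 in Ostn-only sums and higher on the Ibsp-only side in 4 of 11 libraries, whereas Bglap was higher there in 10 of 11.

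**Figure D2:**
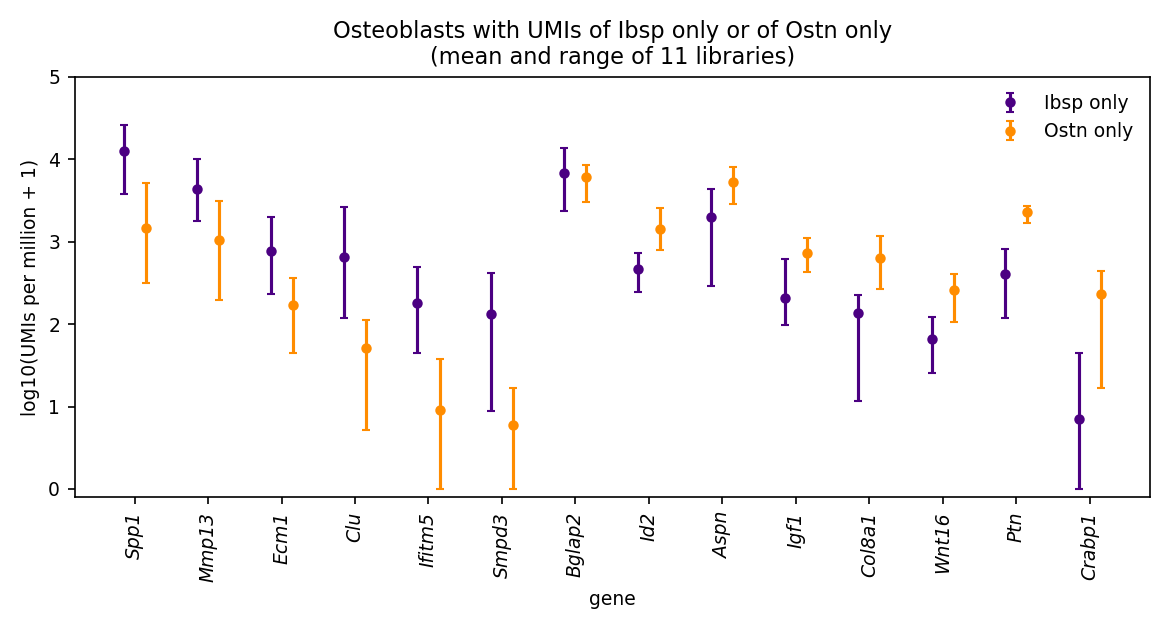
Mean level, as log10(CPM + 1), of genes in osteoblasts with Ibsp but no Ostn and in osteoblasts with Ostn but no Ibsp, with bars for the lowest and highest of 11 libraries. Spp1, Mmp13 and Ifitm5 lie on the Ibsp-only side and Ptn, Wnt16 and Crabp1 on the Ostn-only side, while the 2 means of Bglap2 are near each other.

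Osteoblasts made up 15.6%, 9.48% and 10.8% of kept cells in suffixes 1 to 3, 5.13%, 3.56% and 4.35% in 4 to 6, 4.24%, 4.21% and 3.99% in 7 to 9, and 7.01%, 7.08% and 4.84% in 10 to 12. The rest library of suffix 1 was thus the highest (272 cells, 95% Wilson interval 14% to 17.4%) and the rest library of suffix 5 the lowest (65 cells, 2.80% to 4.51%), an interval that covers counting error only. By label, the share was 7.71% ± 6.82 (SD, n = 3) at rest, 6.95% ± 2.57 at peak, 7.38% ± 3.29 while resolving and 4.73% ± 0.472 when resolved. The exact two-sided permutation test gave p = 1 for each of the 3 later labels against rest, where 0.1 is the smallest p that 3 against 3 libraries allow.

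Within a suffix set the differences from rest took both signs. Peak minus rest was −6.10 percentage points among suffixes 1 to 3 and 0.786 among 4 to 6, and resolving minus rest was −4.77 among 1 to 3 and 0.252 among 7 to 9. Resolved minus rest was 1.57 among 4 to 6 and 0.223 among 7 to 9. Leaving out the rest library of suffix 1 turned all 3 label differences positive, to 3.17, 3.60 and 0.955 points.

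Between suffix sets the share did differ. It averaged 12% ± 3.21 (SD, n = 3) in suffixes 1 to 3, 4.35% ± 0.786 in 4 to 6, 4.15% ± 0.138 in 7 to 9 and 6.31% ± 1.27 in 10 to 12. An exact permutation test over all 15400 ways to form 4 sets of 3 gave p = 0.0011 for a difference among the sets. This p takes the sets as fixed in advance, although earlier results of these data were known when they were formed. After every cell was thinned to 2000 UMIs, the set means were 8.84%, 3.33%, 2.96% and 4.28%, in the same order. These shares are those of cells released by the digest.

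**Figure D3:**
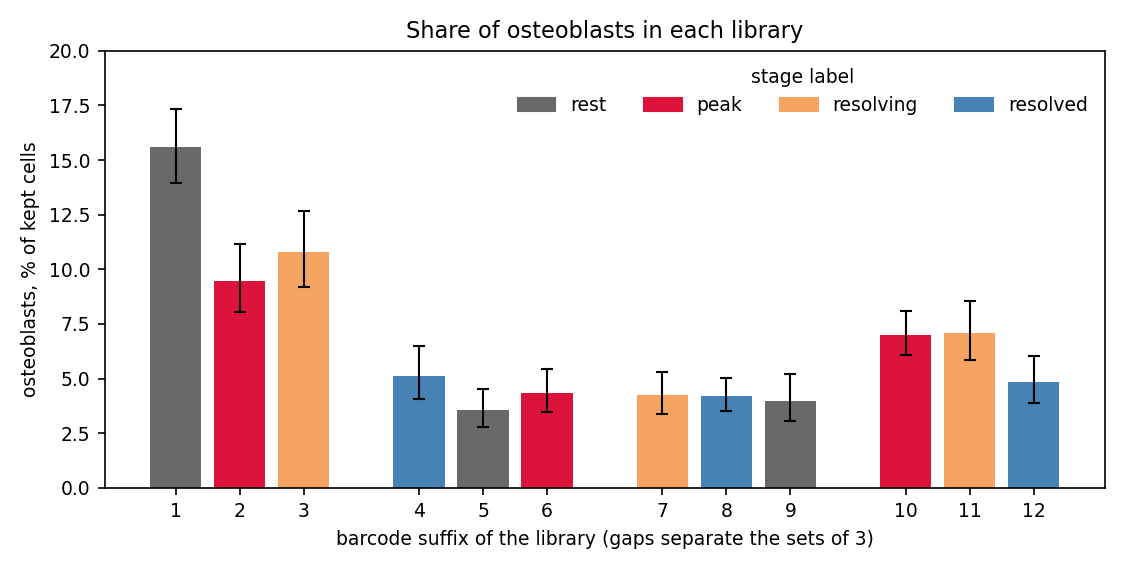
Osteoblasts as a percent of the kept cells of each library, in order of barcode suffix, with bars coloured by label and 95% Wilson binomial intervals. The libraries of suffixes 1 to 3, which carry 3 different labels, sit between 9.48% and 15.6%, above every other library.

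Almost no difference between arthritis labels passed the test in osteoblasts. Sums of the 12 libraries were compared with edgeR's quasi-likelihood test over 6704 genes, and a gene was called at an adjusted p below 0.05 (Benjamini-Hochberg) and a log2 fold change beyond 0.5. Against rest, 0 genes (0.0%) were called at peak, 0 (0.0%) while resolving and 1 (0.0149%) when resolved, with 158, 144 and 169 genes at an unadjusted p below 0.05. DESeq2 called 0, 0 and 1. The libraries did not overlap between peak and rest for 7.83% of genes, between resolving and rest for 6.95% and between resolved and rest for 7.29%.

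Bglap was at 8633, 2641 and 13319 CPM in the rest libraries, 7464, 3766 and 7957 at peak, 8483, 5558 and 7161 while resolving and 12783, 9145 and 6306 when resolved. The rest libraries alone covered the span of all other labels (peak against rest: log2 fold change -0.44 ± 0.43 (SE), adjusted p = 1). Tnfsf11 was at 62.6, 63.7 and 56.1 CPM at rest and 21.8, 28.1 and 43.2 when resolved. These did not overlap, but the difference did not pass (log2 fold change -0.99 ± 0.27 (SE), adjusted p = 1). Col1a1 was at 20794, 20652 and 29654 CPM at rest and 15746, 14364 and 14007 at peak (log2 fold change -0.77 ± 0.24 (SE), adjusted p = 1), again without overlap.

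The 1 gene called when resolved was Cdc20, an activator of the anaphase-promoting complex in dividing cells, named after its values were seen. It was at 5.17, 5.09 and 3.74 CPM at rest and 49.0, 28.1 and 46.8 when resolved (log2 fold change 2.97, adjusted p = 0.0476), and it was called in 7 of 22 alternative analyses. The call was lost without suspected doublets, with the UMI limits of the study's methods, with the suffix set or the replicate number as a block and in 11 of the 12 fits that left out a library.

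Between suffix sets, many genes differed. A test of any difference among the 4 sets called 298 of 6704 genes (4.45%), with 1211 at an unadjusted p below 0.05. Against suffixes 1 to 3, 158 genes (2.36%) were called in 4 to 6, of which 105 (1.57%) were higher and 53 (0.791%) lower, 0 (0.0%) in 7 to 9 and 5 (0.0746%) in 10 to 12, where 4 (0.0597%) were higher and 1 (0.0149%) lower. Unadjusted p-values below 0.05 numbered 1037, 751 and 496, DESeq2 called 81 genes in 7 to 9, and the libraries did not overlap for 21.1%, 17.5% and 14.2% of genes. The count for 4 to 6 was 41 without the rest library of suffix 1, 33 without the resolving library of suffix 3, 73 without the rest library of suffix 5 and 60 without the peak library of suffix 6. The count of any difference was 195 and 188 without suffixes 1 and 3 and 178 without the peak library of suffix 10. The count for 7 to 9 was 22 without suffix 4 and 59 without suffix 5. That for 10 to 12 was 0 without suffix 3 or 10 and 48 without suffix 11. Without the cells suspected to be doublets, 67 of 6130 genes were called in 4 to 6 and 156 for any difference.

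Red cell and muscle transcripts moved with the suffix sets. The sum of the 7 red cell genes averaged 234, 3403, 374 and 2063 CPM over the 4 sets and reached 9233 CPM in suffix 4, and all 4 of them that could be tested, the haemoglobin genes Hba-a1, Hba-a2, Hbb-bs and Hbb-bt, were called higher in 4 to 6. A list of muscle genes averaged 12.3, 16.1, 13.8 and 1603 CPM and reached 3248 CPM in 10 to 12. Without suspected doublets none of the 4 haemoglobin genes was called, at adjusted p of 0.472 (Hba-a1), 0.497 (Hba-a2), 0.172 (Hbb-bs) and 0.579 (Hbb-bt). The part of these transcripts in the other differences was not tested.

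Some inflammatory genes were higher in osteoblasts of suffixes 4 to 6. Of 20 tested inflammatory genes, 4 rose and 0 fell, with a median log2 fold change of 0.87 against −0.01 over all genes. Cxcl5, a neutrophil chemokine, was at 1.03, 0 and 0 CPM in suffixes 1 to 3, 38.1, 234 and 238 in 4 to 6, 4.60, 3.12 and 0 in 7 to 9 and 0.807, 0 and 0 in 10 to 12. It was high in the 3 libraries of 4 to 6, above all in suffixes 5 and 6, and at or near 0 elsewhere (adjusted p = 2.43e-05, edgeR, and 1.33e-05 without doublets). Suffixes 1 to 3 held 2.0 Cxcl5 UMIs and 4 to 6 held 184.0, a ratio of the pooled CPM of 320.0 (exact 95% counting interval 87.3 to 2662). This interval, like that of Saa3 below, covers counting error only and leaves out the spread among cells and libraries. All 191 Cxcl5 UMIs of the osteoblasts came from 28 cells. Cxcl5 UMIs were found in 2.12% of all osteoblasts and 1.58% of endothelial cells, and fibroblasts carried it at 0.512, 1093, 135 and 9.40 CPM over the 4 sets, and the part of free RNA in these UMIs was not tested.

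The monocyte chemokine Ccl2 was at 174, 78.2 and 77.3 CPM in suffixes 1 to 3, 207, 476 and 652 in 4 to 6, 104, 201 and 460.2 in 7 to 9 and 154, 153 and 41.4 in 10 to 12. Suffixes 1, 8 and 9 reached into or near the range of 4 to 6, and 2, 3, 7, 10, 11 and 12 lay below it (log2 fold change 2.01 ± 0.50 (SE), adjusted p = 0.0418, called in 13 of 21 alternatives). Its neighbour Ccl7 was at 142, 61.5 and 271 CPM in suffixes 1 to 3, 498, 983 and 747 in 4 to 6, 313, 262 and 898 in 7 to 9 and 108, 179 and 59.4 in 10 to 12 (log2 fold change 2.29 ± 0.49 (SE), adjusted p = 0.0199, 15 of 21 alternatives). Saa3, an acute phase protein, was at 0.517, 1.12 and 0 CPM in suffixes 1 to 3, 38.1, 38.2 and 357 in 4 to 6, 11.5, 192 and 0 in 7 to 9 and 0, 0 and 0 in 10 to 12 and rose on 146.0 UMIs against 2.0 (pooled ratio 254, exact 95% counting interval 69 to 2116), with most of them in suffix 6, at adjusted p = 0.0145, a call lost without doublets (adjusted p = 0.151). None of the 15 interferon genes tested was called.

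Some genes of protein folding and collagen processing were also higher in 4 to 6. Of 17 secretory pathway genes, 3 rose and 0 fell. Calr, a calcium-binding chaperone of the endoplasmic reticulum, was at 604, 659 and 585 CPM in suffixes 1 to 3, 1007, 1034 and 1213 in 4 to 6, 635, 695 and 621 in 7 to 9 and 579, 611 and 658 in 10 to 12. The 3 libraries of 4 to 6 lay above all others (log2 fold change 0.86 ± 0.12 (SE), adjusted p = 0.00135, called in 21 of 21 alternatives). Pdia6, which forms disulfide bonds, was at 294, 341 and 316 CPM in suffixes 1 to 3, 558, 558 and 582 in 4 to 6, 318, 354 and 247 in 7 to 9 and 310.0, 346 and 378 in 10 to 12 (log2 fold change 0.88 ± 0.14 (SE), adjusted p = 0.00223, 21 of 21). Hsp90b1 followed (log2 fold change 0.80 ± 0.16 (SE), adjusted p = 0.0101).

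Of 21 collagen processing genes, 3 rose and 0 fell. Lox, which cross-links collagen, was at 183, 137 and 119 CPM in suffixes 1 to 3, 338, 308 and 445 in 4 to 6, 175, 225 and 213 in 7 to 9 and 154, 201 and 187 in 10 to 12. All libraries of 4 to 6 were above the others (log2 fold change 1.33 ± 0.19 (SE), adjusted p = 0.000967). P4hb, a subunit of collagen prolyl hydroxylase, was at 277, 276 and 252 CPM in suffixes 1 to 3, 406, 504 and 472 in 4 to 6, 417, 392 and 363 in 7 to 9 and 213, 232 and 241 in 10 to 12 (log2 fold change 0.83 ± 0.14 (SE), adjusted p = 0.00357), with 7 to 9 in between. The third was Kdelr2, which returns chaperones to the endoplasmic reticulum (log2 fold change 0.55 ± 0.14 (SE), adjusted p = 0.0443), called in 5 of 21 alternatives and at an adjusted p of 0.15 without doublets.

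The microfibril genes Fbln2 and Fbn1 rose too. Fbln2, a fibulin of elastic matrix, was at 31, 29.1 and 29.3 CPM in suffixes 1 to 3, 149.7, 168 and 155 in 4 to 6, 80.6, 51.5 and 37.4 in 7 to 9 and 58.9, 33.2 and 18 in 10 to 12 (log2 fold change 2.44 ± 0.28 (SE), adjusted p = 0.000227, called in 20 of 20 alternatives). The lowest of 4 to 6 lay above the highest of the other sets. Fbln2 in fibroblasts was at 356, 716, 497 and 399 CPM over the 4 sets. Fbn1 (fibrillin) was at 22.8, 15.6 and 12.5 CPM in suffixes 1 to 3, 65.3, 112 and 91.4 in 4 to 6, 50.6, 51.5 and 15 in 7 to 9 and 17, 9.48 and 19.8 in 10 to 12 (log2 fold change 2.36 ± 0.32 (SE), adjusted p = 0.000904). Slpi, Hp, Col14a1 and Sfrp1 had log2 fold changes of 3.84 ± 0.61, 3.51 ± 0.72, 3.83 ± 0.83 and 4.34 ± 0.56 (SE), with adjusted p of 0.00253, 0.0157, 0.0205 and 0.00062, and Hp was at an adjusted p of 0.0619 without doublets.

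Of 16 glycolysis genes, 4 rose and 0 fell, with a median of 0.73. On the log2 scale Gapdh moved by 0.96 ± 0.24 (SE; adjusted p = 0.0464, called in 8 of 21 alternatives), Ldha by 0.79 ± 0.18 (0.0245), Pgam1 by 0.73 ± 0.17 (0.0279) and the lactate carrier Slc16a3 by 1.70 ± 0.44 (0.0474). Gapdh was at 438, 556 and 434 CPM in suffixes 1 to 3, 849, 841 and 1002 in 4 to 6, 835, 565 and 539 in 7 to 9 and 1068, 439 and 642 in 10 to 12, so that suffixes 7 and 10 matched the levels of 4 to 6. Without doublets Gapdh was called (adjusted p = 0.0188), whereas Ldha, Pgam1 and Slc16a3 were not, at adjusted p of 0.0519, 0.179 and 0.222. Cell cycle genes rose in 5 of 14 cases (Ccnb1, Ccnb2, Hmgb2, Mki67 and Ube2c), with a median of 1.91, at low levels, from 0 to 27.2 CPM for Mki67. Without doublets Hmgb2 and Ube2c were at adjusted p of 0.0525 and 0.0885, and Ccnb1, Ccnb2 and Mki67 did not pass the count filter there, while Ccnb1 and Mki67 were called in 5 of 17 and 4 of 16 alternatives.

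Several genes of bone matrix and bone patterning were lower in 4 to 6. Of 20 bone matrix genes, 2 fell and 0 rose, with a median of −0.04. Omd was at 1307, 1150.1 and 1870.2 CPM in suffixes 1 to 3, 844, 922 and 817 in 4 to 6, 1144, 1515 and 932 in 7 to 9 and 1167, 1221 and 1101 in 10 to 12 and fell by 0.70 ± 0.18 (SE) on the log2 scale, adjusted p = 0.0474. Ecm1 was at 636, 590.2 and 407 CPM in suffixes 1 to 3, 212, 234 and 222 in 4 to 6, 497, 364 and 262 in 7 to 9 and 379, 219.6 and 304 in 10 to 12 (log2 fold change -1.25 ± 0.23 (SE), adjusted p = 0.00787). Dlx5, whose levels are given above, fell by 0.88 ± 0.22 (SE), adjusted p = 0.0464, a call kept in 6 of 21 alternatives. Tmem119, which promotes osteoblast differentiation, was at 428, 405 and 453 CPM in suffixes 1 to 3, 253, 280.2 and 247 in 4 to 6, 430.4, 465 and 404 in 7 to 9 and 380.2, 309.6 and 324 in 10 to 12 (log2 fold change -0.67 ± 0.14 (SE), adjusted p = 0.019). Without doublets these 4 were not called, at adjusted p of 0.173, 0.0716, 0.0891 and 0.0567. Alpl, a rule gene whose levels are given above, was also called lower in 4 to 6. Its log2 fold change was -0.77 to -0.55 over 21 alternatives, of which 16 called it. Without doublets Alpl was at an adjusted p of 0.0716.

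Further genes that fell, among them Aspn, Nbl1 and Sfrp4, lay outside the bone matrix list. Aspn (asporin), a small proteoglycan that binds collagen and is named here after its values were seen, was at 5587, 5962 and 6404 CPM in suffixes 1 to 3, 2599.6, 2112 and 2145 in 4 to 6, 5075, 4916 and 3427 in 7 to 9 and 3702, 4292 and 5941 in 10 to 12. The 3 libraries of 4 to 6 lay below all others (log2 fold change -1.35 ± 0.16 (SE), adjusted p = 0.000356). Nbl1, a secreted BMP antagonist, was at 859.8, 807 and 894 CPM in suffixes 1 to 3, 245, 369 and 268 in 4 to 6, 647, 584 and 639.8 in 7 to 9 and 981, 605 and 943 in 10 to 12 (log2 fold change -1.48 ± 0.20 (SE), adjusted p = 0.000667, called in 21 of 21 alternatives). Sfrp4, a Wnt antagonist, was at 511, 484 and 562 CPM in suffixes 1 to 3, 226, 219 and 241 in 4 to 6, 905, 423 and 501 in 7 to 9 and 452, 363 and 498 in 10 to 12 (log2 fold change -1.14 ± 0.22 (SE), adjusted p = 0.0101, and adjusted p = 0.00164 without doublets). Gpnmb (osteoactivin) was at 93.6, 54.8 and 106 CPM in suffixes 1 to 3, 16.3, 15.3 and 12.2 in 4 to 6, 59.8, 37.5 and 78.6 in 7 to 9 and 121, 60.0 and 46.8 in 10 to 12 (log2 fold change -2.48 ± 0.47 (SE), adjusted p = 0.0098) and Aldh3a1 showed log2 fold change -2.03 ± 0.37 (SE), adjusted p = 0.00703. The heat shock gene Hspa1a fell (log2 fold change -0.96 ± 0.17, adjusted p = 0.00625) and the early gene Fosb rose (1.11 ± 0.24, 0.0193), and both respond to tissue dissociation. Without doublets Fosb was still called (adjusted p = 0.0123) and Hspa1a was not (0.101).

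Among the other lists in 4 to 6, 0 of 21 BMP and TGF-beta genes were called and 1 of 12 mineralization genes (Tmem119), 1 of 14 osteoblast transcription factors (Dlx5) and 1 of 21 hormone and growth factor receptor genes (Igfbp4, a binder of insulin-like growth factors, log2 fold change 1.76 ± 0.32 (SE), adjusted p = 0.00739). Of 11 Wnt genes, Sfrp1 rose and Sfrp4 fell, and of 10 osteoclast-regulating genes Cxcl12 rose (log2 fold change 1.35 ± 0.34 (SE), adjusted p = 0.046), a call kept in 8 of 21 alternatives and at an adjusted p of 0.0816 without doublets. Of 8 osteocyte genes Pdpn rose and Kcnk2 fell, at adjusted p of 0.0816 and 0.0349 without doublets. Among the largest falls that the naming rule gave, Pamr1, Fhl1, Glt8d2, Mxra7 and Cygb had log2 fold changes of -2.44, -1.69, -1.49, -1.48 and -1.47, and without doublets Pamr1, Glt8d2 and Mxra7 were not called (adjusted p of 0.0817, 0.106 and 0.0695).

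Some genes differed among the sets without following 4 to 6 alone. Chad (chondroadherin), a matrix protein that anchors cells to collagen, was at 432, 401 and 768 CPM in suffixes 1 to 3, 166, 436 and 109.7 in 4 to 6, 283, 508 and 599 in 7 to 9 and 2002, 1270.1 and 1598 in 10 to 12. It was highest in 10 to 12 (any difference: adjusted p = 0.00248, edgeR). Clu (clusterin), an extracellular chaperone that was higher on the Ibsp-only side, had set means of 156, 108, 105 and 561 CPM (0.0068). Ibsp-only cells made up 18.6%, 26.1%, 32.6% and 35.5% of the osteoblasts of the 4 sets, and Ostn-only cells 34.3%, 24.6%, 22.2% and 25.4%. The part of this mix in the set differences was not tested. Angptl7, a secreted protein, had set means of 154, 11.8, 21 and 312 CPM (0.00844), and in fibroblasts of 1912, 188, 403 and 2944, above the osteoblasts in each set.

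**Figure D4:**
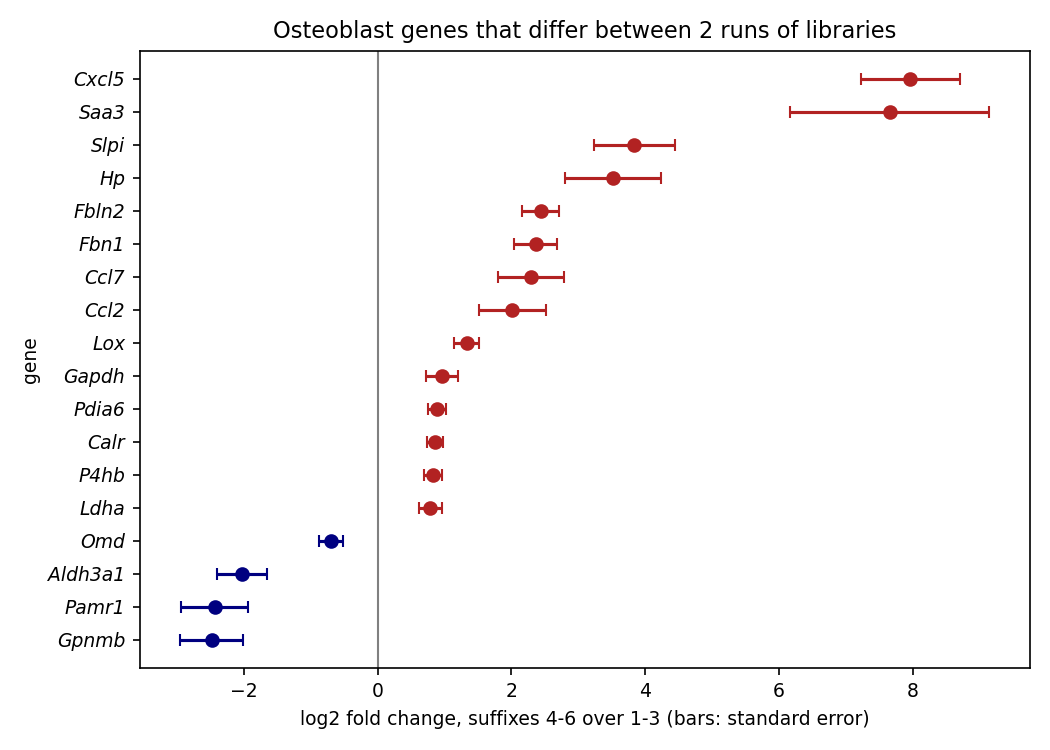
Log2 fold change of 18 genes in osteoblasts of suffixes 4 to 6 over suffixes 1 to 3, with bars for the standard error (edgeR, 3 libraries in each set). Chaperone, microfibril and chemokine genes lie above 0, led by Cxcl5, and Omd, Aldh3a1, Pamr1 and Gpnmb lie below 0.

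In suffixes 10 to 12 the 5 called genes were Ier3, Sdc4, Nppc, Des and Cthrc1. Ier3, an early response gene, was at 569.6, 611 and 558 CPM in 1 to 3 and 949, 1189 and 1076 in 10 to 12 (log2 fold change 0.93 ± 0.15 (SE), adjusted p = 0.0323). Sdc4, a heparan sulfate proteoglycan, was at 301, 329.7 and 299.9 and 629, 799 and 495 CPM (log2 fold change 1.10 ± 0.20 (SE), adjusted p = 0.0451). Nppc, the C-type natriuretic peptide, rose from a mean of 5.97 to 30.8 CPM (adjusted p = 0.0451). Des, a muscle filament, rose from 4.25 to 74.3 CPM (adjusted p = 0.0451), and the muscle list moved with it. Cthrc1, a secreted modulator of Wnt signals and collagen, was at 815, 767 and 1033 CPM in suffixes 1 to 3, 765, 863 and 798 in 4 to 6, 1374, 1558 and 1179 in 7 to 9 and 438, 414 and 477 in 10 to 12. It was lowest in 10 to 12 and highest in 7 to 9 (log2 fold change -0.93 ± 0.14 (SE), adjusted p = 0.0315).

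Whether osteoblasts and fibroblasts of the same libraries differed between suffix sets in the same way was tested by the interaction of set and cell class. This called 811 of 6704 genes (12.1%), with 1704 at an unadjusted p below 0.05, and 529 and 517 without the resolved library of suffix 4 and the peak library of suffix 6. Of the 158 genes called between 4 to 6 and 1 to 3 in osteoblasts, 72 were also called here. Of 20 bone matrix genes 15 were called, of 12 mineralization genes 6, of 21 collagen processing genes 9 and of 17 secretory genes 1. The osteoblast rule fixed the class of a cell but not its suffix set.

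The matrix genes Postn, Cthrc1, Col1a1 and Tnn differed between suffix sets in another way in fibroblasts than in osteoblasts. Postn was at 3491, 4127 and 3901 CPM in suffixes 1 to 3, 2657, 3383 and 2928 in 4 to 6, 4955, 3414 and 2784 in 7 to 9 and 2545, 3652 and 4224 in 10 to 12 in osteoblasts, with set means of 3839.5 ± 322, 2989 ± 367, 3717 ± 1117 and 3474 ± 854 CPM (SD, n = 3 each). In fibroblasts the set means were 222 ± 43, 1549.6 ± 199, 1578 ± 210.1 and 273 ± 84 CPM, with 4 to 6 and 7 to 9 far above the other sets, whereas the osteoblast means stayed within 2-fold of each other (interaction adjusted p = 9.16e-08, edgeR). Cthrc1 was at set means of 872 ± 142, 809 ± 50.1, 1370.3 ± 190.0 and 443 ± 31.7 CPM in osteoblasts and 89.6 ± 29.5, 1097 ± 137, 2059 ± 285 and 219 ± 72.6 in fibroblasts (9.16e-08). Col1a1 stood at 16633, 18222, 25030.3 and 15748 CPM in osteoblasts and 4477, 10681, 14356 and 4698 in fibroblasts (0.00108), and Tnn at 458, 280.4, 413 and 382 and 8.23, 99.8, 139 and 11.9 (2.14e-05).

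Signals to other cells were also called. Tnfsf11 (RANKL) was at set means of 61.6, 51.8, 45 and 52.7 CPM in osteoblasts and 4.06, 47.3, 9.88 and 3.69 in fibroblasts (interaction adjusted p = 0.000144), so that fibroblasts came near the osteoblast level in 4 to 6 alone. Adam12, a metalloprotease, was at 50.0, 74, 61.9 and 38.1 and 1.90, 62, 34.8 and 2.28 CPM (1.09e-07). Timp1, an inhibitor of metalloproteases, was at 884, 1553, 1075 and 668 in osteoblasts and 269, 4288, 1054 and 296 in fibroblasts, which exceeded osteoblasts in 4 to 6 (2.52e-05). Ptn stood at 1660.2, 1088, 1506 and 1588 and 187, 259, 792 and 142 (1.95e-05), with the fibroblast peak in 7 to 9. Of 10 osteoclast-regulating genes 4 were called (Csf1, Mmp14, Tnfsf11 and Wnt16).

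**Figure D5:**
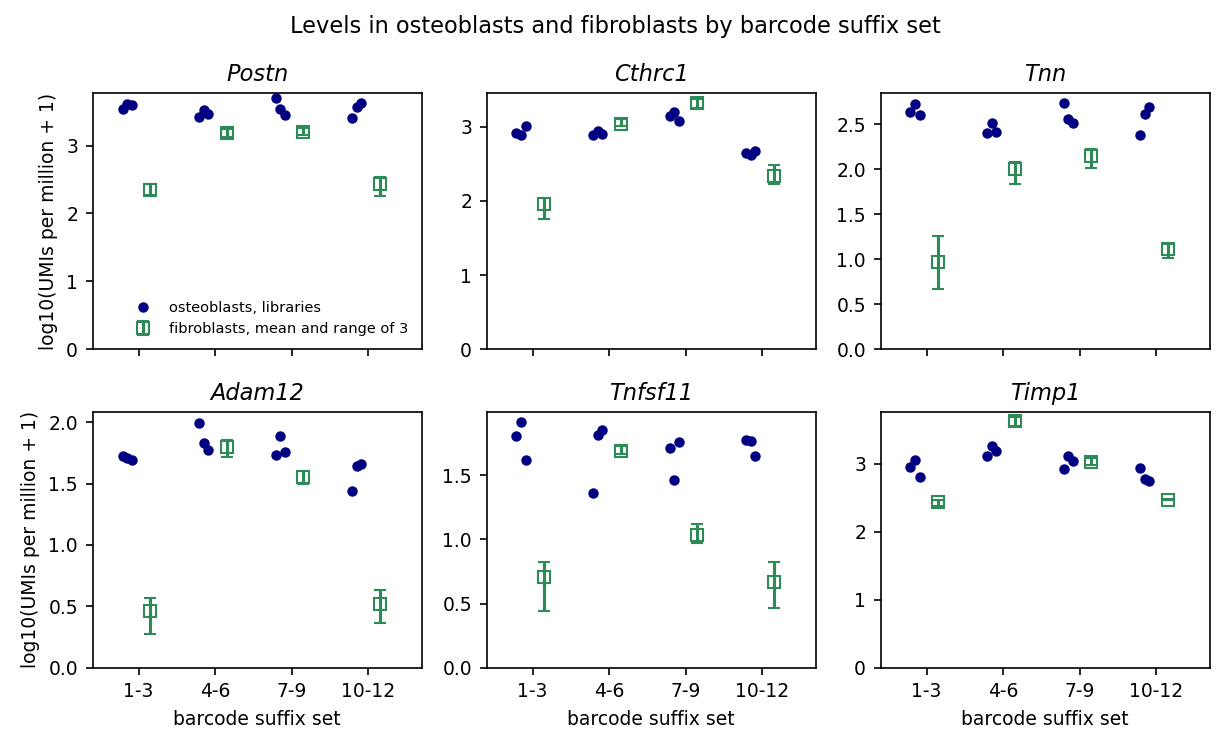
Levels of 6 genes as log10(CPM + 1) by suffix set, with 1 point per library for osteoblasts and the mean with the range of 3 libraries for fibroblasts. The set means of Postn, Cthrc1, Tnn, Adam12 and Tnfsf11 lie closer together in osteoblasts than in fibroblasts, in which Postn averaged 1549.6 CPM in suffixes 4 to 6 and 222 CPM in 1 to 3.

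Hexokinase 2, which commits glucose to glycolysis and was the study's gene of interest in synovial fibroblasts, was also read in osteoblasts. Hk2 was at 94.2, 82.7 and 71 CPM in suffixes 1 to 3, 78.9, 168 and 207 in 4 to 6, 76, 73.4 and 63.6 in 7 to 9 and 152, 177 and 109.7 in 10 to 12. Suffixes 5, 6, 10 and 11 were the highest, and the levels differed among suffix sets (adjusted p = 0.0334, edgeR), with set means of 82.6, 151, 71 and 146 CPM. Fibroblasts averaged 187 CPM, above the osteoblasts of the same library in 11 of 12. At least 1 Hk2 UMI was found in 476 osteoblasts (36.0%, against 1.74% of endothelial cells), and in 15.8% after thinning to 2000 UMIs. Of the 476, 253 (53.2%) rested on 1 UMI, and Hk2-positive cells held more UMIs than Hk2-negative ones (medians 6699.5 and 5167, higher in 11 of 12 libraries).

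Hk2-positive and Hk2-negative osteoblasts of the same library were compared with the library as a block, the split that the study made in fibroblasts. Of 4910 genes, 129 (2.63%) were called, 101 (2.06%) higher and 28 (0.57%) lower, with 779 at an unadjusted p below 0.05, and 84 were called without the rest library of suffix 1. Matching the 2 kinds in depth dropped cells of both, such as positive cells of suffix 11, which fell from 58 to 31. Suffix 9 kept 9 cells of each kind, below the minimum of 10, and left that fit. Of 3659 genes tested with matched depth, 76 were called, 53 of them shared. The part of the fewer cells and libraries in lost calls was not tested. All 122 genes of the 129 that could be tested there kept their sign. In cells thinned to 2000 UMIs, 1191 genes were tested and 6 were called. Only suffixes 1, 2, 5, 6, 10 and 11 kept at least 10 Hk2-positive cells there and entered the fit.

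Part of the inflammatory list was higher in Hk2-positive osteoblasts. Of 21 tested, 9 rose (Ccl7, Cxcl1, Cxcl5, Nfkbia, Nfkbiz, Ptgs2, Timp1, Tnfaip3 and Vcam1) and 1 fell (Ccl11), with a median log2 fold change of 0.74 against −0.00 over all genes. Ptgs2, the inducible prostaglandin synthase, was at 206 ± 73.7 CPM in Hk2-positive and 96.6 ± 96.8 in Hk2-negative sums (SD, n = 12) and higher in 11 of 12 libraries (log2 fold change 1.53 ± 0.25 (SE), adjusted p = 0.00207, and 0.0158 with matched depth). Nfkbia, the inhibitor of NF-kB, was at 1521 ± 562 CPM in Hk2-positive and 985 ± 349 in Hk2-negative sums (log2 fold change 0.65 ± 0.12 (SE), adjusted p = 0.00399, matched 0.00241). Timp1 (log2 fold change 0.98 ± 0.19 (SE), adjusted p = 0.00718), Cxcl1 (728 against 398 CPM, adjusted p = 0.036) and Ccl7 (log2 fold change 1.36 ± 0.35 (SE), adjusted p = 0.036) did not pass with matched depth, at adjusted p of 0.34, 0.0916 and 0.567. Nor did Cxcl5 (log2 fold change 0.25 there), Vcam1 and Tnfaip3, at 0.957, 0.263 and 0.0829, so that Nfkbia, Nfkbiz and Ptgs2 were the 3 of the 9 that did. Of 24 dissociation genes 4 rose, and of 11 glycolysis genes 0 were called. Of 5 red cell genes Hba-a1 and Hbb-bt fell, the median log2 fold change of the list being -2.01, and at adjusted p of 0.0535 and 0.0509 with matched depth. The part of red cell and dissociation transcripts in the other differences was not tested.

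Txnrd1 was higher and Txnip lower in Hk2-positive osteoblasts. Txnrd1, which reduces thioredoxin, was at 117 ± 50.5 CPM in Hk2-positive and 61.9 ± 19.7 in Hk2-negative sums (log2 fold change 0.91 ± 0.16 (SE), adjusted p = 0.00316, matched 0.00105), and Txnip, which binds thioredoxin and curbs glucose uptake, was at 97.5 ± 37.1 CPM in Hk2-positive and 181 ± 51.8 in Hk2-negative sums (log2 fold change -0.85 ± 0.13 (SE), adjusted p = 0.00132, matched 0.0158). Osmr, the oncostatin M receptor, showed log2 fold change 1.15 ± 0.19 (SE), adjusted p = 0.00207, and 0.0829 with matched depth.

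Some bone genes were lower in Hk2-positive osteoblasts. Dlx5 was at 166 ± 107 CPM in Hk2-positive and 316 ± 96.4 in Hk2-negative sums, lower in 12 of 12 libraries (log2 fold change -0.95 ± 0.13 (SE), adjusted p = 0.000977, matched 0.00314). Omd was at 854 ± 299 CPM in Hk2-positive and 1370.3 ± 348 in Hk2-negative sums (log2 fold change -0.69 ± 0.13 (SE), adjusted p = 0.00612), and 0.269 with matched depth. Of 9 Wnt genes 2 fell, Wnt16 (log2 fold change -0.67 ± 0.14 (SE), adjusted p = 0.0121, matched 0.146) and Lrp4 (log2 fold change -0.61 ± 0.16 (SE), adjusted p = 0.036, matched 0.536). Of 9 osteoclast-regulating genes, Tnfsf11 rose (log2 fold change 0.71 ± 0.15 (SE), adjusted p = 0.0114, higher in 11 of 12 libraries) and 2 fell, Wnt16 and Tnfrsf11b, the latter at 39.9 ± 50.9 CPM in Hk2-positive and 103 ± 66.8 in Hk2-negative sums (log2 fold change -1.42 ± 0.31 (SE), adjusted p = 0.0137, lower in 11 of 12). With matched depth Tnfsf11 and Tnfrsf11b were at adjusted p of 0.0735 and 0.0814. Of 20 bone matrix genes, Bglap3 and Omd fell and 0 rose, and with matched depth neither passed, Bglap3 being at an adjusted p of 0.277. The rule gene Ostn was also called lower, with log2 fold changes of -0.71 to -0.30 over 24 alternatives, of which 10 called it. With matched depth Ostn was at an adjusted p of 0.656.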

How the data were processed

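Per the labels and the study's methods, the authors sequenced 10x Genomics 3′ version 2 libraries and made the deposited count matrices with Cell Ranger 2.1.1 on mm10: whole UMI counts per gene and cell. The median of 5358 UMIs per cell was the same in each of the 12 libraries as deposited. Whether depth was evened out among the libraries before deposit was not tested. Cells with more than 500 and fewer than 5000 detected genes were kept (20213 of 21042). Of 27998 gene identifiers, 27645 were found in GENCODE M21, which gave the positions (GRCm38). RefSeq gave the promoters.

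Osteoblasts were taken by the gene rule in the report. Fibroblasts had at least 5 of 7 fibroblast markers, chondrocytes at least 3 of 5 cartilage genes and endothelial cells at least 3 of 7 markers. UMIs were summed per library and class, since cells of 1 library are not replicates; the 12 osteoblast sums held 267280 to 1932905 UMIs. The sums were tested with edgeR 4.0.16 in R 4.3.3 (TMM scaling, filterByExpr, quasi-likelihood F test, two-sided, Benjamini-Hochberg over all genes tested). A gene was called at adjusted p below 0.05 and a log2 fold change beyond 0.5; tests of several coefficients used the adjusted p alone. Labels were tested with 12 libraries in 1 fit, suffix sets likewise, the set by class interaction and the Hk2 split with the library as a block. In the interaction fit the low-count filter read the osteoblast sums. The edgeR tests of peak, 4 to 6, any difference, set by class and Hk2 were first run on simulated counts. Of genes changed there by 1 on the log2 scale they recovered 14.5%, 46%, 39%, 28.5% and 87%. Of their calls 6.45%, 5.15%, 11.4%, 10.9% and 5.95% were false. Shares were compared with exact permutation tests (scipy 1.17.1). Alternatives were library totals alone, no filter, DESeq2 1.42.0, at least 4 rule genes, the UMI limits of the study's methods, a mitochondrial limit of 10%, thinning to 2000 UMIs, removal of suspected doublets, the replicate or suffix set as a block, and leaving out each library. Scrublet (scanpy 1.11.5) called 56 cells (0.277%), too few to have worked, so the doublet alternative removed the 6% of cells with the highest score and cells with at least 2 markers of another class.

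Named genes were the rule and marker genes, of each gene list the 4 highest members and every called member, and for each comparison the 10 genes each way with the largest change and without overlap between groups at a mean of at least 20 CPM. The members, the lists and the grouping by suffix set were chosen with earlier results of these data known. The p-values between suffix sets do not account for this. Replicate libraries came from separate pools of 3 animals.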

Additional observations from a re-analysis of the deposited data

Results flagged for a closer look

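In 20 genes the difference between suffix sets was not the same in osteoblasts and fibroblasts by the test of that difference (edgeR interaction of set and class, adjusted p below 0.05), and the gap between the classes changed most from set to set. Each value is the span, over the 4 sets, of the log2 level in osteoblasts minus that in fibroblasts. Bone and matrix genes were Bmp3 with a span of 5.94, Smpd3 5.52, Tnn 4.64, Cthrc1 3.86 and Col14a1 3.33. Signal genes and receptors were C1qtnf3 with 5.33, Ramp1 4.75, Tnfsf11 4.01, Ackr4 3.87, Rarres1 3.63 and Vdr 3.56. Proteases and surface proteins were Prss35 with 5.89, Adam12 4.55 and Lrrc15 3.95. Dividing-cell genes were Birc5 with 4.73, Ube2c 4.67 and Top2a 4.11, and the remaining genes were Stmn2 with 5.03, Fabp5 3.87 and Nt5dc2 3.46. For Smpd3, osteoblasts averaged 43.6, 19.4, 127 and 46.7 CPM over the sets and fibroblasts 23.1, 1.79, 1.25 and 12.3. For C1qtnf3, osteoblasts averaged 41.4, 24.4, 61.9 and 31.9 CPM and fibroblasts 11, 215, 406 and 77.0.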

How the results depend on the processing

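Most single-gene values kept their side of the threshold: of 6533 alternative values for named genes, 5132 did, 1400 kept the direction without passing and 1 turned (Cxcl5 between Hk2-positive and Hk2-negative osteoblasts, −0.38 with at least 4 rule genes). Without the low-count filter, 122 genes were called at peak, 52 while resolving and 103 when resolved, 904 for any difference between suffix sets, 403 in 4 to 6, 194 in 7 to 9, 272 in 10 to 12, 1425 for set by class and 244 for Hk2; the cause was not tested. The labels' replicate numbers were not taken to pair libraries (correlations of deviations from −0.154 to 0.211), and with the replicate number as a block 0 genes were called at each of the 3 stages. With the suffix set as a block the counts were 2, 4 and 0. For resolved against rest, 0 genes were called with at least 4 rule genes, with the UMI limits, after thinning and without doublets, and 6 with the 6 libraries alone. Genes tested in the label, set and set by class fits numbered 6704 in the main fits and 16247 without the filter. They numbered 5385 with at least 4 rule genes, 6717 with the UMI limits, 2225 after thinning and 6130 without doublets. Counts of called genes across these settings are thus of unlike totals. Any difference gave 166 with at least 4 rule genes, 60 after thinning and 156 without doublets. For 4 to 6 the counts were 68 with at least 4 rule genes, 99 with the UMI limits, 43 after thinning and 67 without doublets. For 7 to 9 they were 81 by DESeq2, 2 with at least 4 rule genes and 1 with the UMI limits. For 10 to 12 they were 2 with library totals alone, 37 by DESeq2, 19 with at least 4 rule genes, 19 after thinning and 9 without doublets. Set by class gave 100 after thinning. The Hk2 split gave 6 of 1191 genes after thinning, 76 of 3659 with matched depth and 31 of 3179 without the library block. Leaving out each library in turn gave 0 to 0 genes at peak and while resolving, 0 to 2 when resolved, 178 to 297 for any difference, 33 to 159 in 4 to 6, 0 to 59 in 7 to 9, 0 to 48 in 10 to 12, 517 to 772 for set by class and 84 to 148 for Hk2. It moved the share difference from rest to between −2.84 and 3.17 points at peak, −2.41 and 3.60 while resolving and −5.05 and 0.955 when resolved, and the span of set means to between 6.00 and 9.05. The signs that turned were those without rest replicate 1 (3.17, 3.60 and 0.955), without peak replicate 2 (0.539 for peak) and without resolving replicate 2 (1.23 for resolving). Osteoblasts numbered 50 to 272 per library, so low genes rest on few UMIs.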
